A study of Mus musculus with 9 samples.

Results

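The 52 genes described here are the short, non-transcription-factor genes of a table of cancer-annotated genes listed as changed in EHE17 cells treated with dinaciclib. They were taken from the 251 genes of that table as those with no transcription factor family entry and with a span, the deposited gene end minus gene start, under 25 kb. That rule gave 72 genes, from which 20 were left out by name (among them Calr, Ccnd1, Cdk4 and Mdm2). EHE17 is a mouse tumour cell line labelled endothelial, with the genotype TC+/+ Cdkn2a -/-, which treated and control cells share. The treated group received dinaciclib at 300 nM for 16 h and the control group received DMSO, the vehicle, with 3 libraries in each group. The labels call the replicates biological without saying that they were separate cultures, so the p-values measure only the spread between these libraries. TC is not spelled out in the labels, and how many clones or tumours the line comes from is not given in the sources used here.

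Dinaciclib is an inhibitor of several cyclin-dependent kinases. One of these, CDK9, releases RNA polymerase II from its pause near the start of genes. When that release is blocked, few new messages are completed, and the level of each message then also reflects how fast it decays. The span of a gene sets how far the polymerase has to travel to finish a message, and short genes usually carry few or small introns. The 52 genes are short in this sense, but they otherwise share only an annotation to tumours: they encode kinases and their adaptors, RNA-binding proteins, DNA repair and chromatin proteins, a few receptors and secreted proteins, and enzymes.

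The libraries differed in depth along with the treatment. Total counts were 2541162 to 3316779 with dinaciclib and 31852117 to 40020833 with vehicle, a ratio of the group means of 12.2. The authors picked all 251 genes on these same libraries, by a deposited adjusted p under 0.05 and a log2 fold change of 1 or more in size, so that a call here is no independent evidence. Of 13 endothelial markers, Kdr and Fli1 were in the table, and of 6 blood, 8 fibroblast and mural, and 4 epithelial markers 0 were. Because the table holds picked genes alone, the endothelial label could not be checked further. Dinaciclib replicate 2 stood apart: the chi-square of its counts over its degrees of freedom was 36.9 and 55.6 against the other dinaciclib libraries, which differed from each other by 7.20. Between vehicle libraries it was 5.97 to 6.73. This measure grows with depth, so its values cannot be compared between the groups, and the relative spread, given below, was larger with dinaciclib.

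Levels below are normalised counts, that is, the deposited counts divided by the authors' size factor for each library, given in the order of replicates 1, 2 and 3, and positions are the deposited ones, on GRCm38. They are relative to the other messages of a library, and in bulk RNA fewer cells and less RNA per cell cannot be told apart. Enough counts for a test were there for 51 of the 52 genes, and edgeR's quasi-likelihood test, after Benjamini-Hochberg correction, called 18 of them higher with dinaciclib and 33 lower. Of the whole table's 248 tested genes, 100% were called, 25% of them higher and 75% lower, against 35.3% higher and 64.7% lower among the short genes. The median log2 change was −1.50 for the short genes and −1.83 for the table, or −1.50 and −1.81 with genes at 0 counts (1 short gene, 7 in the table) set at their bound. With library factors from trimmed means over the listed genes (TMM), which take most of these picked genes as unchanged and raise the median log2 change of all genes by 1.62, the split was 21 higher and 19 lower. The 20 short genes left out by name were 14 higher and 6 lower, so all 71 tested short genes of the table together were 32 higher and 39 lower.

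The libraries of the 2 groups seldom overlapped. In 17 of the 52 genes every dinaciclib library was above every vehicle library and in 33 every one was below, which left Sept5 and Cd74 with overlapping ranges. In the whole table the ranges were apart for 98.4% of the genes, 24.3% above and 74.1% below. The called rises spanned 2.23-fold to 37.2-fold. The median log2 change was −2.94 for the called falls and 1.73 for the called rises, and −1.34 and 3.38 for the same genes with TMM factors. The falls rested on few reads, with a median of 30 counts over the 3 dinaciclib libraries against 2282 for the genes called higher. The higher genes took 1.18% to 1.54% of all counts in the dinaciclib libraries and 0.212% to 0.218% in vehicle, and the lower genes 0.0636% to 0.0649% and 0.206% to 0.212%.

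**Figure D1:**
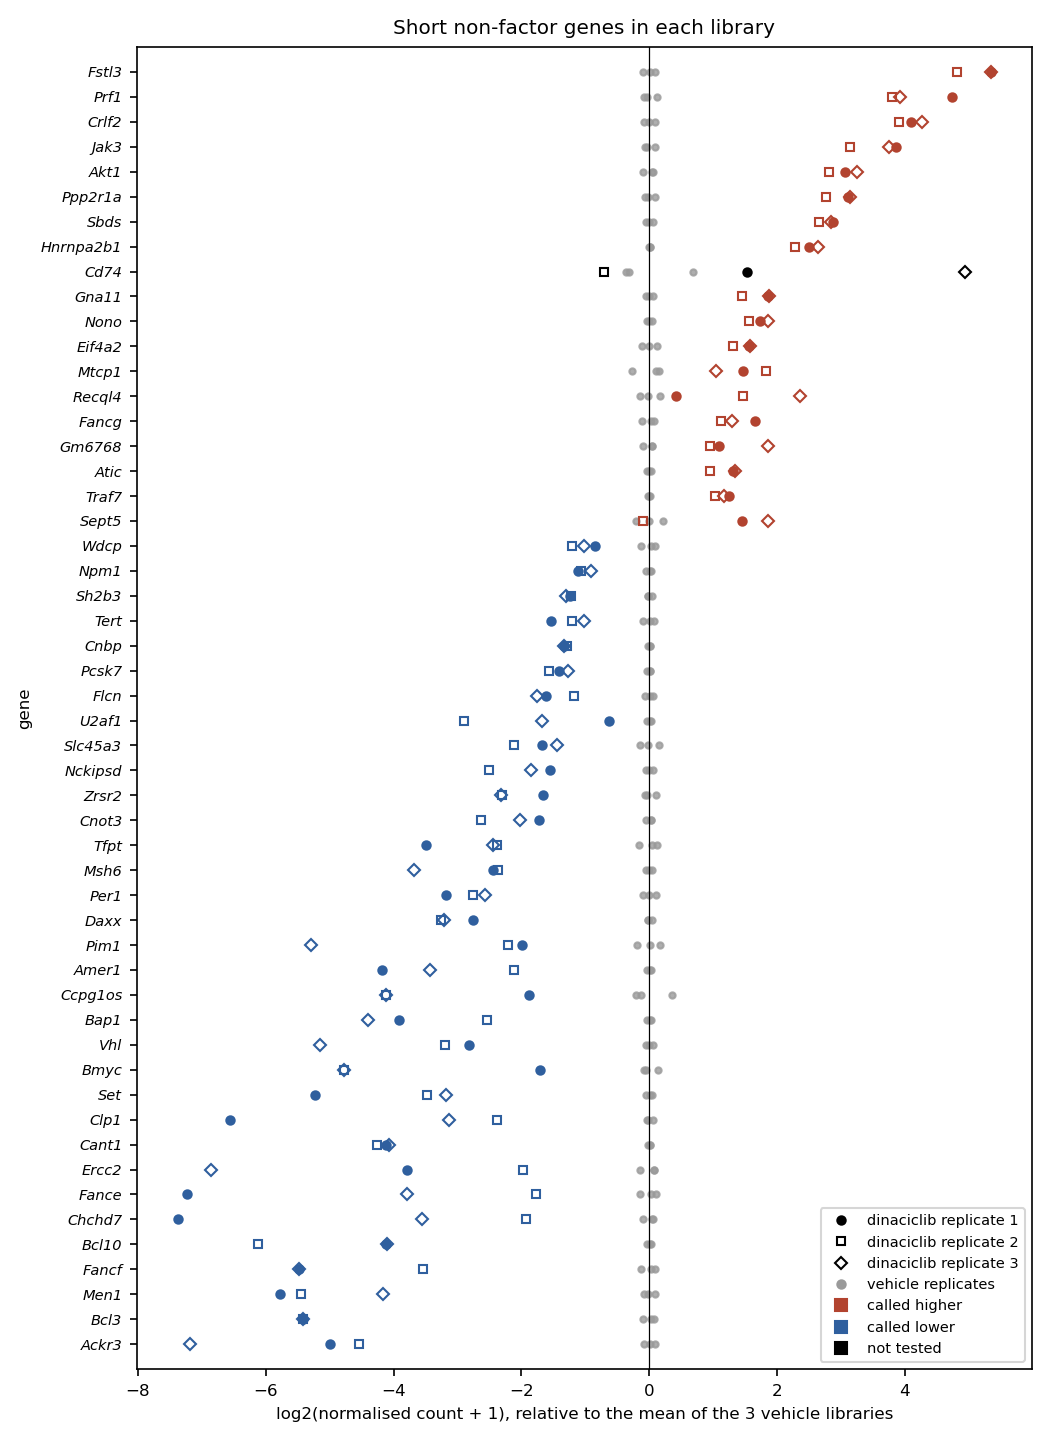
Level of each of the 52 genes in each library, as log2(normalised count + 1) minus the mean of the 3 vehicle libraries (horizontal axis), with 1 gene per row ordered by the mean of its dinaciclib libraries. Grey points are vehicle replicates, and the circle, square and diamond are dinaciclib replicates 1, 2 and 3, coloured by the call of the test. The 18 called rises are led by Fstl3, the 33 called falls spread more widely between dinaciclib replicates, and the dinaciclib points of Sept5 and Cd74 reach the vehicle points.

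The largest rise was in Fstl3 (chromosome 10, 79777272 to 79782630), which encodes a secreted antagonist of activin and myostatin. Its levels were 2345, 1629 and 2352 with dinaciclib and 60.1, 52.8 and 57.2 with vehicle, a 37.2-fold rise and a log2 change of 5.21 (SE 0.193, adjusted p 5.45e-08, edgeR quasi-likelihood test, Benjamini-Hochberg). Replicate 2 was the lowest of the treated libraries and was still far above vehicle. Of the 2445 bases of Fstl3 counted by the authors, 47.3% overlap exons of Prss57 on the other strand, and the libraries carry no strand mark, so the reads of these genes cannot be told apart there. Prf1 (chromosome 10, 61297833 to 61304680), which encodes perforin, the pore-forming protein of cytotoxic lymphocytes, had 514, 268 and 292 with dinaciclib and 17.9, 17.2 and 20.1 with vehicle, a 19.5-fold rise from a low level. None of the 6 blood markers was in the table, but it holds picked genes alone, so this does not tell whether they were expressed. Of the 6, Cd68 and Lyz2 were listed with the other compound of the series, MGH-CP1.

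Both Crlf2 and Jak3, of cytokine signalling, were higher. Crlf2 (chromosome 5, 109554709 to 109558993), a subunit of the receptor for thymic stromal lymphopoietin, had 7833, 6879 and 8903 with dinaciclib and 432, 459 and 488 with vehicle, a log2 change of 4.10 (SE 0.118). Jak3 (chromosome 8, 71676296 to 71690575), the kinase that binds the common gamma chain of cytokine receptors, had 2740.5, 1672 and 2539 with dinaciclib and 180.0, 184 and 199.98 with vehicle, a log2 change of 3.62 (SE 0.197). In each gene the treated libraries lay well apart from vehicle, with replicate 2 the lowest. The next genes in size were Akt1 (chromosome 12, 112653821 to 112674884), the kinase downstream of PI3K, and Ppp2r1a (chromosome 17, 20945311 to 20965916), the scaffold subunit of protein phosphatase 2A. Akt1 had 30249, 25531 and 34499.8 with dinaciclib and 3726, 3366 and 3771 with vehicle, an 8.31-fold rise. Ppp2r1a had 25223, 19793 and 25858 with dinaciclib and 3098, 2779 and 2897 with vehicle, an 8.08-fold rise. In both of these abundant messages replicate 2 was the lowest treated library, far above vehicle.

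Sbds and Hnrnpa2b1 completed the 8 largest rises. Sbds (chromosome 5, 130245731 to 130255530), which encodes a protein of large ribosomal subunit maturation, had 4967, 4297 and 4910.3 with dinaciclib and 654, 709.8 and 677 with vehicle, a log2 change of 2.80 (SE 0.0895). Hnrnpa2b1 (chromosome 6, 51460932 to 51469894), which encodes an abundant nuclear RNA-binding protein, had 36444, 31540.4 and 40216 with dinaciclib and 6499.8, 6505 and 6427 with vehicle, a log2 change of 2.48 (SE 0.11). Hnrnpa2b1 had the most counts of the genes called higher, 33185 over the 3 dinaciclib libraries. By the same test and correction as for Fstl3, the adjusted p of the 8 genes ran from 2.51e-08 (Crlf2) to 1.21e-06 (Prf1) in the edgeR fit. The rises of all 8 genes remained rises with TMM factors and with total counts as library sizes.

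At the other end, Bcl3 (chromosome 7, 19808462 to 19822770), a nuclear cofactor of NF-kappaB, had 0 counts in the 3 dinaciclib libraries. In vehicle it had 42.6, 44.1 and 38.9 normalised counts, which makes it at least 12.9-fold lower with a floor of 3 counts over the group. Ackr3 (chromosome 1, 90203980 to 90216751), a chemokine receptor that takes up CXCL12 without classical signalling, had 18.5, 25.7 and 3.28 with dinaciclib and 658, 584 and 623 with vehicle, a log2 change of −5.26 (SE 0.374), or −5.89 without dinaciclib replicate 2. Men1 (chromosome 19, 6334979 to 6340891), which encodes menin, a scaffold of histone methyltransferase complexes, had 11.1, 14.3 and 36.0 with dinaciclib and 655, 627 and 705 with vehicle, a log2 change of −5.01 (SE 0.33), or −5.68 without dinaciclib replicate 3. With dinaciclib Ackr3 rested on 15 counts and Men1 on 19.

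Bcl10 (chromosome 3, 145922804 to 145934356), an adaptor between antigen receptors and NF-kappaB, had 25.9, 5.71 and 26.2 with dinaciclib and 471, 477 and 454 with vehicle. Cant1 (chromosome 11, 118406289 to 118419086), a calcium-activated nucleotidase, had 44.4, 39.9 and 45.9 with dinaciclib and 775, 793 and 791 with vehicle, with the dinaciclib libraries close to each other. Set (chromosome 2, 30057378 to 30072577), a histone chaperone and inhibitor of protein phosphatase 2A, had 70.3, 239.7 and 295 with dinaciclib and 2694, 2580.4 and 2753 with vehicle, with replicate 1 the lowest. The falls of these genes were 24.3-fold, 18.1-fold and 13.3-fold, in that order, and no library overlapped. Reads of Set can fall on near-copies: 6 other genes, 5 of them pseudogenes, match it at 95% identity or more over a long stretch, the longest being 1240 bases.

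A further pair of genes among the largest falls had 1 count in the 3 dinaciclib libraries. Fancf (chromosome 7, 51860577 to 51862267), an adaptor of the Fanconi anaemia core complex, had that count in replicate 2, against 143, 148 and 155 counts in vehicle. With the counts summed over each group and scaled by the summed size factors, this is a ratio of 40.2 with an exact 95% interval of 7.18 to 1592 that covers counting error only. Ccpg1os (chromosome 9, 72979722 to 72985382), a gene on the strand opposite Ccpg1 that the table gives as protein-coding, had its count in replicate 1, against 43, 49 and 82 counts in vehicle, a ratio of 15.7 (2.78 to 623). Without the library that holds the count both genes stood at 0 with dinaciclib. Bmyc, a short relative of Myc, was close to this with 2 counts, both in dinaciclib replicate 1, against 90, 84 and 96 in vehicle, a ratio of 12.2 (3.34 to 101.03). Without dinaciclib replicate 2 the log2 change of Ccpg1os was −3.24 in place of −3.88 and that of Bmyc −2.90 in place of −3.57, and without replicate 1 Bmyc stood at 0 with dinaciclib. The adjusted p of the 8 largest falls ran from 1.58e-07 (Cant1) to 0.00413 (Ccpg1os), and that of Bmyc was 0.00126, by edgeR's quasi-likelihood test after Benjamini-Hochberg correction. Of the counted bases of Bmyc 62.8% overlap a gene on the other strand.

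The 250 bases before the annotated start are shown for 3 of the largest rises and 3 of the largest falls, to set beside each other the promoters of genes that moved in opposite ways. Sequences and positions are RefSeq's on GRCm38.p6, written 5′ to 3′ on the strand of the gene. Capitals mark each match, on either strand, to TATAAA (the TATA box), to CCAAT (the CCAAT box), to GGGCGG (the GC box), to TGANTCA (the AP-1 site) or to CACGTG (the E-box), and runs of capitals may hold overlapping matches. The rises are Fstl3 (chr10:79777024-79777273, plus strand), Prf1 (chr10:61297586-61297835, plus strand) and Crlf2 (chr5:109558994-109559243, minus strand), and the falls are Bcl3 (chr7:19822756-19823005, minus strand), Ackr3 (chr1:90203730-90203979, plus strand) and Fancf (chr7:51862268-51862517, minus strand).
Fstl3: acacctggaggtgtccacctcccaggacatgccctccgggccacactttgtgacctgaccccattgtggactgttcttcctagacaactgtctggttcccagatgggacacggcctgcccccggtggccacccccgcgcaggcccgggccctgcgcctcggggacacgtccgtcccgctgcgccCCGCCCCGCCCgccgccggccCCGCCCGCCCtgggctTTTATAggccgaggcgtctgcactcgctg
Prf1: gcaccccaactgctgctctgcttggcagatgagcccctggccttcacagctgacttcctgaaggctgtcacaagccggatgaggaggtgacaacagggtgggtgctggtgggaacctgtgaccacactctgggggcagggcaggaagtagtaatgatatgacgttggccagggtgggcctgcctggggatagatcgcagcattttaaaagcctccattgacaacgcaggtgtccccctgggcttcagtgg
Crlf2: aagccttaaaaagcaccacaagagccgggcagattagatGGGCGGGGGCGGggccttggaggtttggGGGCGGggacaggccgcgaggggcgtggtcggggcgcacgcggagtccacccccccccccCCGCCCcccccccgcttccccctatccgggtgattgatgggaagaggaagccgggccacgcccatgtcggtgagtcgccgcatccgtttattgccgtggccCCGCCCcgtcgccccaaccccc
Bcl3: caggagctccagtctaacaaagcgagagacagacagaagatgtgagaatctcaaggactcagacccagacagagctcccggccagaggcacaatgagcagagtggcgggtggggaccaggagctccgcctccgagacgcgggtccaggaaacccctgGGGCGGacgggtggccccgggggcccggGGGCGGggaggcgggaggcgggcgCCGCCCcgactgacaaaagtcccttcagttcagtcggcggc
Ackr3: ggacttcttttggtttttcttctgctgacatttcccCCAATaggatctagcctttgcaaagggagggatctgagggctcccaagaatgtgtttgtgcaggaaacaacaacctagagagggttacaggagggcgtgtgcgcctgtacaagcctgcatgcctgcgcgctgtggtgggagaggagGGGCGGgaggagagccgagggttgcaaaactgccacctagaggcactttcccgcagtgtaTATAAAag
Fancf: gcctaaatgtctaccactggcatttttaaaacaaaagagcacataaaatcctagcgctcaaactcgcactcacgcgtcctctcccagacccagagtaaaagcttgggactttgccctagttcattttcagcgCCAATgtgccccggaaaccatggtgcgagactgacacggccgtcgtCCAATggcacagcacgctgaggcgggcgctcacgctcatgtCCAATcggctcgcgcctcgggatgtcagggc
In these windows Fstl3 held 4 matches to GGGCGG and a match to TATAAA 29 bases before the start, Crlf2 held 5 matches to GGGCGG and Bcl3 held 3. Ackr3 held a TATAAA 8 bases before the start, 1 GGGCGG and 1 CCAAT, while Fancf held 3 matches to CCAAT and 0 to GGGCGG, and Prf1 held 0 to any of the 5 motifs. The promoter table had an entry for 42 of the 52 genes. For these the start nearest the deposited 5′ end was used, within 100 bases of that end in 34 genes. For the listed genes and all promoters the first entry was used, so the choice of start differs. Among the 42 genes, GGGCGG was found in 31 (73.8%), in 8 of 14 genes called higher and 23 of 28 called lower. It was found in 68.6% of 194 listed genes and 32.9% of all 27025 RefSeq promoters. CCAAT was found in 20 of the 42 (47.6%), beside 38.7% of listed genes and 34.5% of all promoters, and CACGTG in 5 (11.9%), beside 13.4% and 6.05%. TATAAA was found in 4 (9.52%), beside 4.64% and 13.0%, and TGANTCA in 0 (0%), beside 5.15% and 6.87%. The median window of the short genes held 20.5 CpG dinucleotides and that of all promoters 6, while the listed genes, long ones included, had 20.

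Among the short genes, the split between rises and falls varied with span, in a description without a test because the span chose the genes. Of 4 genes under 5 kb 2 were higher and 2 lower, and of 18 tested genes from 5 to 10 kb 9 were higher and 9 lower, with a median log2 change of −0.02 that turned positive with TMM factors (1.60), with total counts (0.11) and without vehicle replicate 2 (0.05). From 10 to 15 kb, 1 of 12 was higher, Jak3, and 11 were lower, with a median of −2.98 (−4.14 without dinaciclib replicate 2, −1.37 with TMM factors). From 15 to 25 kb, 6 were higher and 11 lower, with a median of −1.28, or 0.33 with TMM factors. The share of falls was highest from 10 to 15 kb (91.7%), in the middle of the range. With the 20 genes left out by name counted, it was 80% there, beside 80.3% of the non-factor genes of 25 kb or more. In order of span the 4 medians were then 1.07, 1.28, −2.94 and −1.05.

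The longer genes are set beside the short ones as a description. Of 127 tested non-factor genes of 25 kb or more, 25 were higher and 102 lower (19.7% and 80.3%), with a median of −1.88, or −1.83 with 3 genes at 0 counts set at their bound. By span they were 10 higher and 38 lower from 25 to 50 kb, 8 and 38 from 50 to 100 kb, and 7 and 26 from 100 kb on, with medians of −2.37, −1.88 and −1.64. Spearman's rho between log10 span and log2 change was 0.0881 over the 51 short genes, 0.210 over the 127 longer ones and −0.0207 over all 198 non-factor genes, across genes that share the same 6 libraries and are not independent replicates. Counting the 20 genes left out by name, the short genes had 45.1% rises, so how many rises the short genes show depends on which of them are counted.

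**Figure D2:**
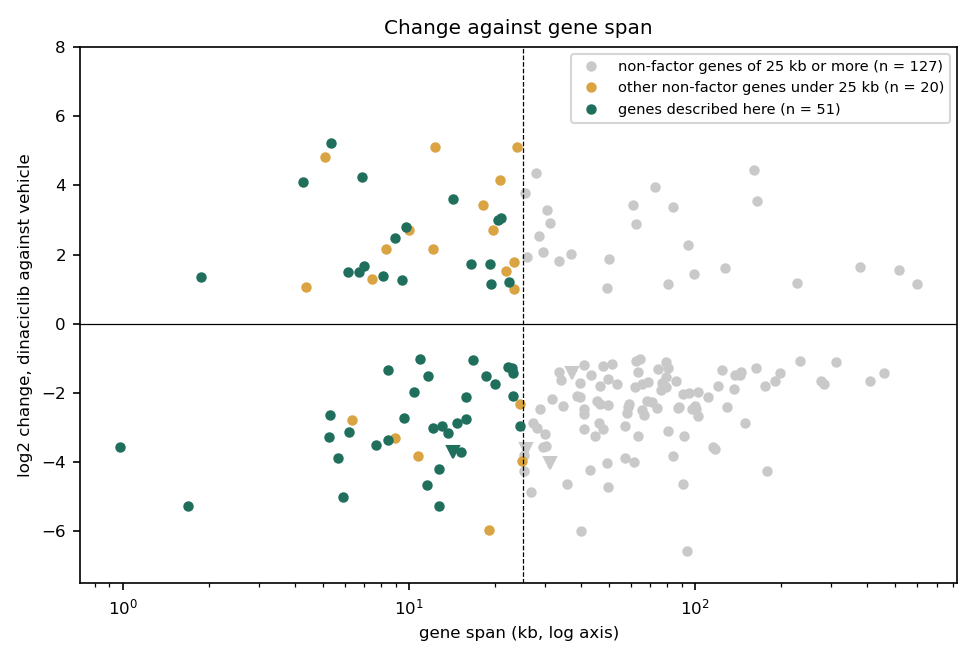
Log2 change with dinaciclib from the edgeR fit (vertical axis) against gene span in kb (log axis) for the 51 tested short genes (green), the 20 other short non-factor genes (orange) and 127 longer non-factor genes (grey). Triangles are genes with 0 counts with dinaciclib, drawn at their bound, the dashed line is the 25 kb limit, and the empty band around 0 is left by the authors' choice of genes changed by at least 1. Rises and falls are mixed under 10 kb, and from 10 to 15 kb 1 green point, Jak3, is above 0.

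The 3 genes nearest below the limit were Zrsr2, Pcsk7 and Amer1, with spans of 23218, 23229 and 24554 bases. Zrsr2, a splicing factor, had 104, 65.6 and 65.5 with dinaciclib and 313, 323 and 353 with vehicle. Pcsk7, a proprotein convertase, had 185, 165 and 203 with dinaciclib and 497, 482 and 495 with vehicle. Amer1, a regulator of Wnt signalling, had 7.40, 34.2 and 13.1 with dinaciclib and 152, 147 and 154 with vehicle. All 3 genes were lower in every treated library, and the log2 change of Amer1, on 18 dinaciclib counts, was −2.96, or −3.85 without dinaciclib replicate 2. Just above the limit stood Erbb2, Lck and Ddb2, with spans of 25246, 25297 and 25410 bases. Erbb2, a receptor tyrosine kinase, had 44.4, 34.2 and 0 with dinaciclib and 510.3, 499.9 and 487 with vehicle. Lck, a kinase of T cells, had 0, 5.71 and 3.28 with dinaciclib and 48.1, 42.3 and 47.2 with vehicle. Ddb2, a DNA damage sensor, had 203, 159.8 and 246 with dinaciclib and 11.4, 16.9 and 15.2 with vehicle. Erbb2 and Lck were lower, Lck on 3 dinaciclib counts, and Ddb2 was higher.

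Among the tested short genes, those with over 10 exons were more often among the rises, in counts without a test. The whole table, with 25% of tested genes higher and 75% lower, was not split by exon number. Of 21 genes with over 10 exons, 11 were higher and 10 lower, with a median log2 change of 1.15. Of 16 tested genes with 6 to 10 exons 3 were higher and 13 lower, of 11 with 2 to 5 exons 3 and 8, and of 3 genes with a single exon 1 was higher, Gm6768, and 2 lower, Bmyc and Fancf. Gm6768 is a processed copy of Ncoa4 that matches it over the whole of its length, so its reads are uncertain. It had 189, 171 and 321 with dinaciclib and 91.3, 91.5 and 82.5 with vehicle.

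**Figure D3:**
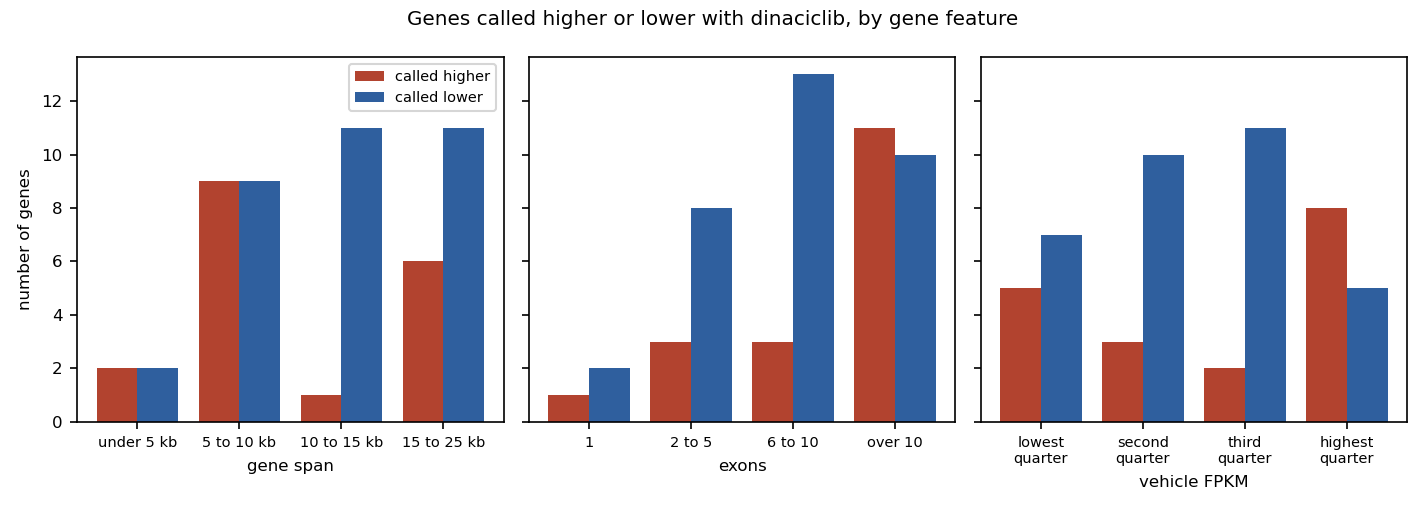
Number of the 51 tested short genes called higher (red) or lower (blue) with dinaciclib, by gene span, by the largest exon number of an annotated transcript and by level in vehicle (FPKM, 4 groups from lowest to highest). Falls outnumber rises from 10 to 25 kb, in genes with 2 to 10 exons and in the 3 lower groups of level, while 8 of 13 genes of the highest group were called higher.

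Per length, in the authors' FPKM (fragments per kilobase of gene, scaled to library size), the level in vehicle ranged from 0.0499 for Cd74 to 118 for Cnbp, with a median of 8.76. With the genes cut into 4 groups by vehicle level, 8 genes of the highest group were higher and 5 lower. In the groups below it these were 2 and 11, 3 and 10, and, at the lowest, 5 and 7. The whole table, with 25% of tested genes higher and 75% lower, was not cut by level. The 8 abundant genes called higher included Hnrnpa2b1 (95.3 FPKM in vehicle, 582 with dinaciclib), Akt1 (85.6 and 781) and Nono (72.9 and 265). Those called lower included Cnbp, a nucleic acid-binding zinc finger protein (118 and 51.8), and Npm1 (117 and 63.1), and both of these turned to rises with TMM factors (log2 changes of 0.31 and 0.61). Spearman's rho between vehicle FPKM and log2 change was 0.153 over the 51 genes. It was 0.168 over all 198 tested non-factor genes and 0.0121 over the 127 longer ones. All these genes share libraries and depth.

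**Figure D4:**
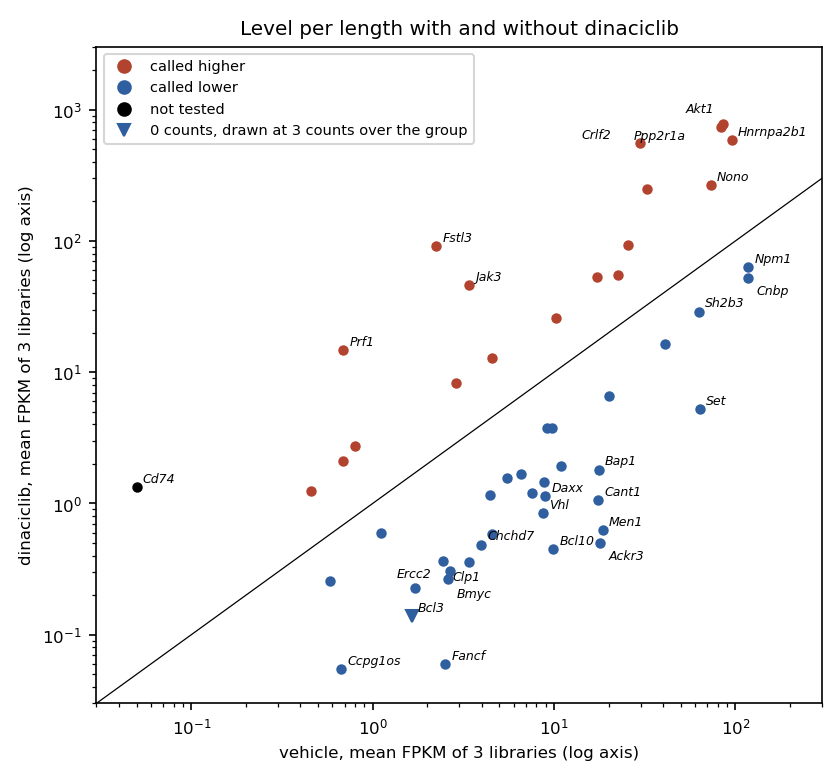
Mean FPKM of the 3 dinaciclib libraries (vertical log axis) against that of the 3 vehicle libraries (horizontal log axis) for the 52 genes, red where called higher, blue where called lower and black for Cd74, which was not tested. The line marks equal levels, and the triangle is Bcl3 with 0 counts, drawn at 3 counts over the group. Akt1, Ppp2r1a, Hnrnpa2b1 and Crlf2 reach over 500 FPKM with dinaciclib, and Fancf and Ccpg1os, with 1 count each, lie lowest.

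Genes of RNA processing and translation were the list with the largest share of rises among those with 5 or more short members. Of 7 tested, 4 rose and 3 fell, with a median log2 change of 1.49, while with TMM factors 4 rose and 0 fell. The same list over the whole table gave 7 higher and 13 lower of 20, with a median of −1.44. The list leaves out Clp1, an RNA kinase, and Cnbp, a nucleic acid-binding protein. Both were lower, though Cnbp was higher with TMM factors. Beside Hnrnpa2b1 and Sbds, the nuclear RNA-binding protein gene Nono had 10999, 9715 and 11966 with dinaciclib and 3285, 3218 and 3381 with vehicle and the translation initiation helicase gene Eif4a2 had 2826, 2368 and 2840.0 with dinaciclib and 877, 1032 and 954 with vehicle. All treated libraries of both were above vehicle, at 3.31-fold and 2.81-fold. Both genes share a near-identical stretch with a pseudogene, of 1419 bases (55.4% of the transcript) in Nono and 307 bases (11.3%) in Eif4a2.

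The 3 falls of this list were U2af1 and Zrsr2, which recognise the 3′ splice site of major and minor introns, and Cnot3, a subunit of the CCR4-NOT deadenylase that shortens poly(A) tails. U2af1 had 266, 54.2 and 128 with dinaciclib and 413, 419 and 400.5 with vehicle, a log2 change of −1.50 (SE 0.429), or −2.21 without dinaciclib replicate 1 and 0.15 with TMM factors. The dinaciclib libraries of U2af1 differed from each other more, relative to their mean, than those of any other gene of this list, and 3 pseudogenes match it closely. Cnot3 had 144, 77.0 and 118 with dinaciclib and 489, 464 and 491 with vehicle, a 4.25-fold fall. It lies 15339 bases from Tfpt on chromosome 7, a further short gene that was lower.

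The list of kinases, phosphatases and adaptors gave 4 rises (Akt1, Jak3, Ppp2r1a and Traf7) and 6 falls (Amer1, Bcl10, Bcl3, Flcn, Pim1 and Sh2b3) of 10. Its median was −1.37, beside 8 and 23 of 31 in the whole table with a median of −2.27. The list is broad, and Bcl3, Amer1, Flcn and Traf7 on it are neither kinases nor phosphatases. Sh2b3, an adaptor that restrains cytokine receptor signalling, had 1328, 1338 and 1268 with dinaciclib and 3215, 3079 and 3065 with vehicle, a log2 change of −1.25 (SE 0.074) that became 0.38 with TMM factors. Its dinaciclib libraries were within a few percent of each other. Pim1, a serine/threonine kinase, had 74.0, 62.8 and 6.55 with dinaciclib and 259.5, 298 and 333 with vehicle, with replicate 3 far below the other treated libraries. Traf7, a ubiquitin ligase of stress kinase signalling, rose 2.23-fold, and Flcn, folliculin, was 2.83-fold lower, with a log2 change of 0.12 under TMM factors. With these factors the list had 5 rises and 4 falls.

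Of 8 genes on the list of DNA replication, repair and checkpoint, which holds Tert and Bap1 too, 2 rose and 6 fell. Their median was −2.84, beside 6 and 17 of 23 in the whole table with a median of −1.72. The Fanconi anaemia core complex, which starts the repair of DNA crosslinks, went both ways. Fancg had 355, 245 and 278 with dinaciclib and 104, 119 and 115 with vehicle, a 2.60-fold rise, while Fancf had 1 count with dinaciclib and Fance had 0, 42.8 and 9.83 with dinaciclib and 135, 160.3 and 153 with vehicle. Replicate 1 held 0 counts of Fance and replicate 2 held 15 of its 18, and its log2 change of −2.94 was −4.83 without replicate 2. Both directions of this complex were the same with TMM factors and with total counts.

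Msh6, a mismatch recognition protein, had 70.3, 74.2 and 29.5 with dinaciclib and 389, 376 and 399 with vehicle, a 6.69-fold fall. Bap1, a deubiquitinase of histone H2A, had 55.5, 146 and 39.3 with dinaciclib and 860.5, 828 and 866 with vehicle, a log2 change of −3.37 (SE 0.379), or −4.18 without dinaciclib replicate 2. Replicate 2 was the highest treated library of Bap1 and remained well below vehicle. Ercc2, a helicase of the transcription and repair factor TFIIH, had 7.40, 28.5 and 0 with dinaciclib and 105, 121 and 121 with vehicle on 12 dinaciclib counts, and its log2 change of −3.15 was −5.04 without dinaciclib replicate 2. Exons of other genes, mostly on the other strand, overlap 42.7% of its counted bases. Recql4, a RecQ helicase, rose 3.12-fold with its dinaciclib libraries spread from 48.1 to 187, and Tert, the catalytic subunit of telomerase, was 2.46-fold lower on 13 counts, with a log2 change of 0.33 under TMM factors.

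All 4 short chromatin genes fell, beside 33 lower and 3 higher of 36 in the whole table, and Npm1 turned to a rise with TMM factors. Beside Men1 and Set these were Daxx and Npm1. Daxx, a chaperone of histone H3.3, had 40.7, 28.5 and 29.5 with dinaciclib and 278, 291 and 278 with vehicle, a log2 change of −3.12 (SE 0.235). Npm1, nucleophosmin, a nucleolar histone chaperone, had 1490.4, 1541 and 1713 with dinaciclib and 3253, 3130.4 and 3299 with vehicle, a log2 change of −1.03 (SE 0.0818), the smallest fall among the called genes. The treated libraries of both were close together, but reads of Npm1 may be shared with 4 pseudogenes. Vhl, the substrate receptor of the ubiquitin ligase that marks hypoxia-inducible factors, had 37.0, 28.5 and 6.55 with dinaciclib and 261, 278 and 267 with vehicle, an 11.2-fold fall. Vhl and Bap1 were the 2 short genes on the list of ubiquitin and proteolysis genes, which does not hold Traf7.

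Of the receptor and secreted protein list Crlf2 and Fstl3 rose, and Cd74, the invariant chain of MHC class II, was not tested. Over the whole table the same list gave 4 higher and 11 lower of 15 tested, with a median of −2.24. The chemokine receptor gene Ackr3, which was lower, is on none of the lists. Cd74 had 1, 0 and 15 counts with dinaciclib and 5, 1 and 1 with vehicle, so that 15 of its 16 dinaciclib counts came from replicate 3. The G protein subunit gene Gna11 had 3887, 2947 and 3967 with dinaciclib and 1116, 1038 and 1078 with vehicle, a 3.34-fold rise without overlap. Sept5, a septin, had 51.8, 17.1 and 68.8 with dinaciclib and 18.2, 21.4 and 15.7 with vehicle, with replicate 2 inside the vehicle range. Its log2 change of 1.27 had a Benjamini-Hochberg adjusted p of 0.0165 in the edgeR fit, and 0.0718 without dinaciclib replicate 1, 0.157 without dinaciclib replicate 3 (log2 change 0.81) and 0.0596 without vehicle replicate 3. Exons of Gp1bb and of a read-through model on the same strand cover Sept5, so its reads may belong to them.

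Among genes of metabolism and survival, Mtcp1, an AKT-binding protein of the TCL1 family, had 88.8, 114 and 65.5 with dinaciclib and 26.0, 35.0 and 34.0 with vehicle, a 2.82-fold rise. Chchd7, a small mitochondrial protein, had 0, 42.8 and 13.1 with dinaciclib and 172, 169.7 and 154 with vehicle, a log2 change of −3.01 (SE 0.45), or −4.56 without dinaciclib replicate 2. Its replicate 1 held 0 counts. The transporter gene Slc45a3 had 229, 168 and 269 with dinaciclib and 817, 664 and 727 with vehicle, a 3.31-fold fall that shrank to a log2 change of −0.09 with TMM factors. In all 3 genes the treated libraries were on 1 side of vehicle.

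The 13 genes on none of the lists were 3 higher and 10 lower (23.1% and 76.9%), near the 25% and 75% of the whole table. Prf1, Gm6768 and Atic were the rises, and Atic, an enzyme of purine synthesis, rose 2.32-fold. Beside Ackr3, Bmyc, Ccpg1os, Cnbp and Pcsk7, the falls were in Clp1, an RNA kinase of tRNA splicing and message cleavage (10.4-fold on 9 counts, log2 change −3.26, or −4.15 without dinaciclib replicate 2), Per1, a repressor of the circadian clock (7.36-fold), Tfpt, an INO80 complex subunit (6.88-fold), Nckipsd, an actin regulator (3.82-fold), and Wdcp (2.06-fold). With TMM factors the log2 changes of Wdcp and Pcsk7 were 0.56 and 0.22, those of Nckipsd, Bmyc and Ccpg1os were −0.34, −1.98 and −2.33, and none of these 5 was called, while Cnbp was called higher.

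Libraries differed in a regular way among the rises. Dinaciclib replicate 2 was the lowest treated library in 16 of the 18 genes called higher, with a median deviation of −0.23 on the log2(normalised count + 1) scale from the group mean, and replicate 3 the highest in 12. Among the 33 falls the lowest library was replicate 1, 2 and 3 in 13, 12 and 13 genes, ties counted for each. The median coefficient of variation with dinaciclib was 15.3% for the higher genes and 50.4% for the lower ones with any counts, against 5.97% and 3.87% in vehicle. Without replicate 2, 18 genes were called higher and 33 lower.

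Of the chromosomes with 3 or more of the genes, chromosomes 7 (5 genes), 11 (4), 2 (3) and 9 (3) held only falls. Chromosome 10 held 3 genes, all higher, and the others were mixed. Of all tested genes 75% were lower in the whole table and 64.7% among the short genes. The whole table was not split by chromosome, and no test by chromosome was made. With TMM factors Npm1 on chromosome 11 was called higher, and Flcn on chromosome 11, Cnot3 on chromosome 7, Bmyc on chromosome 2 and Nckipsd, Ccpg1os and Pcsk7 on chromosome 9 were not called. Exonic bases of 20 of the 52 genes are shared with another gene. A stretch of near-identical sequence in another gene was found for 7 (Eif4a2, Gm6768, Nono, Npm1, Set, U2af1 and Wdcp), where counts may be split. The longest stretch covers 4.79% of the transcript of Wdcp and 11.3% of that of Eif4a2, and 43.8% or more in the others. None of the 52 genes was among the 471 genes listed for the other compound of the series, MGH-CP1, an inhibitor of TEAD palmitoylation given at 10 µM, and their values with it were not analysed here.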

How the data were processed

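RNA sequencing libraries of EHE17 cells, 3 with dinaciclib and 3 with vehicle, were grouped by their labels. Messenger RNA was captured on poly-T beads and the second strand was made without a strand mark, per the labels' protocols. The submitters' processing notes name HISAT2 2.0.5, featureCounts 1.5.0-p3, fastp and, for the comparison, DESeq2 1.20.0. The build of the genome is not given in the sources used here, and coordinates were taken as GRCm38 because all 251 gene identifiers are in GENCODE M21, 242 of them with the same start and end (47 of the 52 genes described). Raw read counts per gene and library are deposited as whole numbers, per the file headers. The authors' normalised signal equals each count over a size factor of its library, as recovered from the values. FPKM values and gene lengths were deposited by the authors too. The authors' log2 fold changes and their p-values, raw and adjusted, served only to check how the genes had been picked.

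The members, the gene lists, the tests and the alternatives were chosen with earlier results of these data known. Counts were fitted with edgeR 4.0.16 in R 4.3.3 by the quasi-likelihood test (two-sided), with the authors' size factors, no covariate, genes kept by filterByExpr at a minimum count of 10, and Benjamini-Hochberg adjustment over all 248 tested genes at a threshold of 0.05. Fold changes in the text are ratios of the mean normalised counts, with n = 3 libraries a group, except for genes with 1 or 2 dinaciclib counts, whose ratio is of counts summed over the group and scaled by the summed size factors. The log2 changes and their standard errors come from the fit. Bounds use a group floor of 3 counts, intervals are exact at 95%, and both cover counting error only. On counts simulated for the 248 genes of this comparison, the test called 6.25% of 48 unchanged genes, 99.0% of 104 changed by a log2 of 1 and 100% of 96 changed by a log2 of 2. The simulated levels started from the mean over both groups, with the same dispersion trend in each. These rates therefore do not carry over to genes with few dinaciclib counts. The dispersion was estimated on picked genes, so adjusted p-values hold no genome-wide error rate.

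Values in every library are given for the 8 largest rises and falls and for up to 4 members of each function list by smallest p. They are also given for genes with 0 counts with dinaciclib and for 3 genes on each side of the span limit. Outside this rule, U2af1, Cnot3, Pim1, Fance, Ercc2, Gm6768 and Bmyc have them too. Promoters were those of the RefSeq table. For the short genes described here the start nearest the deposited 5′ end was used, and for the listed genes and all promoters the first entry. Near-copies were found with BLAST 2.17.0 against GENCODE M21 transcripts. Alternatives were TMM factors, DESeq2 1.42.0, total counts as library sizes, all genes without the filter, a threshold of 0.01, a test against a log2 change of 1, vehicle counts thinned to the mean dinaciclib total, the replicate number as a block, span limits of 20 and 30 kb, exonic length in place of span, and leaving out each replicate. Figures were drawn with matplotlib 3.10.9.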

Additional observations from a re-analysis of the deposited data

How the results depend on the processing

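The 33 falls stayed at 28 to 33 under total counts, DESeq2, no count filter, the stricter threshold, the test against a log2 change of 1, thinned vehicle counts and the replicate block, and the 18 rises at 16 to 19, while leaving out each replicate gave 17 to 18 rises and 33 falls. With span limits of 20 and 30 kb there were 15 and 22 rises and 27 and 41 falls. TMM factors over the listed genes, which shift the median log2 change by 1.62 by construction (0.13 for total counts), gave 19 falls and 21 rises and 0 falls among RNA processing genes. The TMM medians by span were 0.51 under 5 kb, 1.60 from 5 to 10 kb, −1.37 from 10 to 15 kb, 0.33 from 15 to 25 kb and −0.26 for longer genes. Under TMM the log2 changes of Cnbp (0.31), Sh2b3 (0.38), Npm1 (0.61), Pcsk7 (0.22), Flcn (0.12), Wdcp (0.56), U2af1 (0.15) and Tert (0.33) turned positive, and Cnot3, Zrsr2, Slc45a3, Nckipsd, Bmyc and Ccpg1os lost their calls. Total counts gave medians of 0.11 from 5 to 10 kb and −1.15 from 15 to 25 kb. Leaving out each replicate gave medians of −1.66 to −0.68 under 5 kb, −0.25 to 0.05 from 5 to 10 kb (0.047 without vehicle replicate 2), −4.14 to −2.62 from 10 to 15 kb, −1.36 to −1.26 from 15 to 25 kb and −2.14 to −1.79 for longer genes. The median of the genes below the median span minus that of the genes above it was 0.32, with 0.018 to 0.52 when each replicate was left out, and −1.41 when exonic length replaced span; the cause was not tested. Tested against a log2 change of 1, Npm1, Wdcp, U2af1, Tert and Sept5 lost their calls, and with thinned vehicle counts Wdcp did (5 falling or rising genes then had too few counts to test).

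The replicate number pairs nothing in the labels. Same-numbered libraries had correlations of their deviations of 0.0511, 0.0912 and 0.0474 over 126 genes, and dinaciclib replicate 1 correlated best with vehicle replicate 3 (0.0972), so the numbers were not taken as pairs. With the replicate block 16 genes were higher and 31 lower, and Recql4, Wdcp, Tert and Sept5 lost their calls at log2 changes of 1.47, −1.05, −1.29 and 1.19. As to depth, 16 of the 33 lower genes had under 30 counts in the 3 dinaciclib libraries together.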
